A study of Mus musculus with 3 samples.

Results

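Hematopoietic stem cells (HSCs) of 1 preparation were compared by how much of their open chromatin signal came from ribosomal DNA (rDNA), the repeated genes for the large ribosomal RNA precursor. The rDNA share of a cell was the number of its unique ATAC fragments that started in a window of 10 kb on chromosome 17, chr17:39840000-39850000 in mm10 (GRCm38), divided by all of its ATAC fragments. Of 3757 called cells, 3108 had more than 3000 fragments in peaks and were ranked by this share, and the 621 cells of the highest quintile were set against the 622 cells of the lowest quintile. The cells were chosen by the rDNA share itself, so the share is given below as a description. ATAC fragments per cell are its denominator. The counts at TSSs and in peaks include window fragments and are given with and without them.

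The cells were long-term HSCs (LSK, CD48-, CD150+, CD34-) sorted from the bone marrow of wild-type female C57BL/6 mice (C57BL/6J in the study's methods) 8 weeks old, and every quintile came from these same animals, whose number the labels and the study's methods do not state. They were profiled by DOGMA-seq, which reads open chromatin by ATAC, RNA, and the tags of bound antibodies in the same cell, with 1 library of each kind. All 3757 called barcodes had both ATAC and RNA reads. With a single preparation the comparisons have no replicates and no test was made, and the 95% intervals are exact Poisson or binomial intervals, or delta intervals for ratios of fragment lengths, that cover counting error only.

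In a cell, rDNA lies in long arrays of near-identical copies close to the centromeres of several chromosomes. RNA polymerase I, with the factors UBTF and RRN3, transcribes each active copy in the nucleolus into a 47S precursor that is cut into 18S, 5.8S and 28S rRNA. Only some copies are active in a given cell, and these are kept open and largely free of nucleosomes, whereas silent copies are packed in nucleosomes. HSCs are known for a low rate of protein synthesis. The assembly places a repeat unit in part on chromosome 17, and there reads from all copies can collect, so the window counts fragments of many copies as if they were 1 locus. Identical fragments from different copies collapse as duplicates, and reads that fit equally well elsewhere can be lost.

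The window held 3 stretches with signal. Gm26917, annotated as a lincRNA at chr17:39843013-39846341 on the plus strand, lies where the transcribed spacer before the 18S gene would be. The 18S gene followed at chr17:39846354-39848202 on the plus strand, where RefSeq carries it as the pseudogene Rn18s-rs5 and GENCODE has an rRNA gene on the minus strand, CT010467.1, which reaches past its end. A last stretch after the 18S gene overlapped Gm42418, a lincRNA. The densest 300 bases, chr17:39844801-39845100 on the plus strand, lay within Gm26917 and held 19882 fragments of the 3108 cells and 36 CpG dinucleotides, which are in capitals here to show the base composition of the region the ranking rests on.
densest 300 bases: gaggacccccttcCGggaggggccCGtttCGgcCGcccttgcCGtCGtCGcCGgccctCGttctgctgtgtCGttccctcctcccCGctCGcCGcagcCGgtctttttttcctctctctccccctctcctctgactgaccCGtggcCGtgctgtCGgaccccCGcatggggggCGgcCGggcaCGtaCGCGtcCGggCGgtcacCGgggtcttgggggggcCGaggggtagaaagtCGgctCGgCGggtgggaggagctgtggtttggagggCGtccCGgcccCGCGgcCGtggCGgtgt

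The start of the 18S gene, chr17:39846294-39846413 on the plus strand, is shown with the bases of the 18S gene in capitals, because fragment density dropped across this border.
start of 18S: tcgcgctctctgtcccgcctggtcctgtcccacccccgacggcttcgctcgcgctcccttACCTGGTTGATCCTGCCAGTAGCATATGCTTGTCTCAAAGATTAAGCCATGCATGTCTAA

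The libraries held 211561468 ATAC read pairs and 163982094 RNA reads over 605049 barcodes. Ranked cells had a median of 11457 ATAC fragments (range 3977 to 194399) and 3860 RNA UMIs (range 234 to 52809). Fragments within 1 kb of the transcription start sites (TSSs) of 8 HSC marker genes were at 17.4 CPM per gene in the lowest quintile and 19.7 in the highest, where CPM stands for fragments per 1000000 fragments outside the rDNA window. Those of 4 megakaryocyte markers were at 20.7 and 20.8 CPM per gene. The members of both lists went both ways. Of the HSC markers, Hlf (44.9 and 54.7), Kit, Meis1 and Mecom were higher, and Procr, Slamf1, Ly6a and Fgd5 (10.7 and 10.3) lower. Of the megakaryocyte markers, Itga2b and Gp1bb were higher, and Pf4 (28.7 and 20.9) and Gp9 lower. Over all protein-coding genes, fragments within 1 kb of a TSS made up 36.8% and 40.3% of those outside the window. Markers of B cells, T cells, neutrophils and monocytes, erythroid cells, and endothelium and stroma lay between 1.15 and 7.44 CPM per gene in both quintiles, and no marker of any list was at 0. For Mecom, a defining HSC gene, the TSS window held only 3 and 4 fragments, although its gene body held 3526 and 2965.

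The rDNA window was the strongest of all 10 kb windows of the genome, with 261685 of the 37191101 fragments of the ranked cells, or 0.704%. Barcodes not called as cells had 0.384% of their fragments there. The share per cell had a median of 0.616% (quartiles 0.352% and 0.987%) and ran from 0 in 1 cell to 4.16%, which a median of 69 window fragments per cell (quartiles 39 and 112) resolved. The variance of window fragments over cells was 46.7 times that of Poisson counts at each cell's depth. From the lowest to the highest quintile the median shares were 0.193%, 0.399%, 0.616%, 0.886% and 1.46%. Pooled over cells the share was 0.185% (0.182 to 0.188) in the lowest quintile and 1.57% (1.56 to 1.58) in the highest, 8.49 times as much (8.34 to 8.63). The quintiles cut a continuous range. The last 3 cells inside the lowest quintile had 0.2983% to 0.2989%, and the first 3 outside it 0.2993% to 0.3002%. The last 3 cells below the highest quintile had 1.1029% to 1.1030%, and the first 3 inside it 1.1031% to 1.1054%.

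The share was repeatable between different fragments of a cell. When cells were ranked only on fragments with an even start position, the share among fragments with an odd start was 0.201% in the lowest quintile and 1.54% in the highest, and the 2 shares had a Spearman correlation of 0.94 over 3108 cells. When they were ranked only on the stretch before the 18S gene, the share of fragments in the 18S gene and after it was 0.0566% in the lowest quintile and 0.463% in the highest, with a Spearman correlation of 0.91 over the same cells. Both sets of fragments come from the same library and depth of each cell, so these values describe sampling within a cell.

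The signal was higher along the whole part of the repeat that the window holds, and its shape was nearly the same in every quintile. Gm26917 up to the 18S gene held 71.9%, 71.4%, 70.7%, 70.4% and 70.0% of the window fragments from the lowest to the highest quintile. The 18S gene held 18.7%, 18.8%, 19.1%, 19.2% and 19.2%, and the stretch after it 9.37%, 9.81%, 10.3%, 10.3% and 10.8%. All 3 stretches were thus higher in the highest quintile, by 8.37-fold (8.20 to 8.54), 8.84-fold (8.50 to 9.20) and 9.93-fold (9.39 to 10.5). The first 3012 bases of the window, before Gm26917, held 6 fragments in the lowest quintile and 44 in the highest. In the plot of coverage over the window the 5 lines lie close together, with a plateau over Gm26917, which held 55.2 fragments per base in the 3108 cells and where 69.1% of bases are G or C, then a low point in the 18S gene and a second peak at its end.

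**Figure D1:**
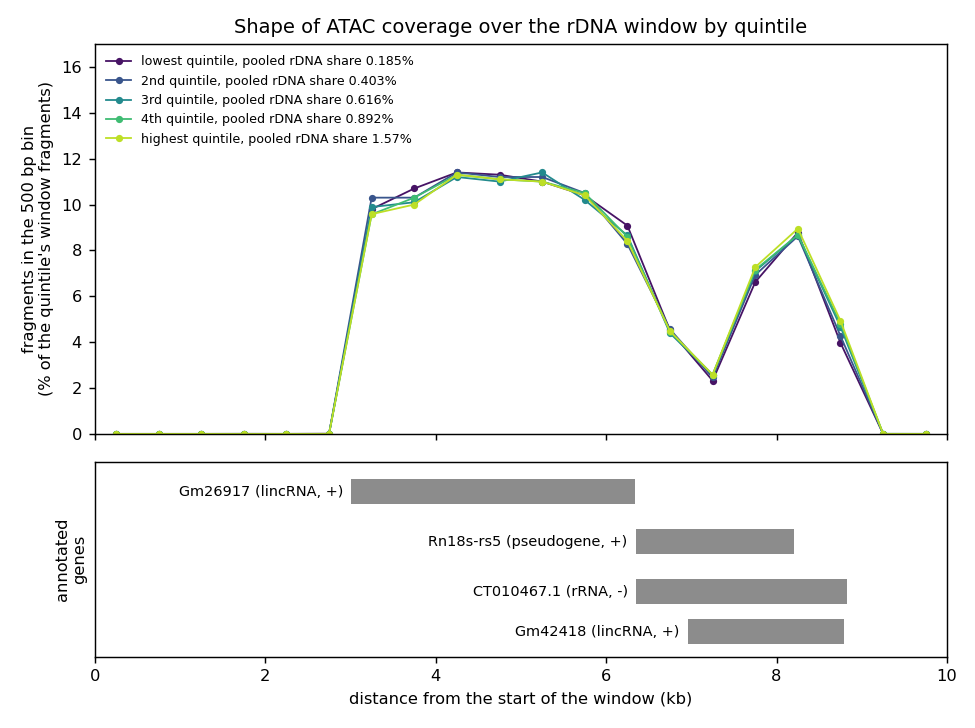
Share of each quintile's window fragments (%) in bins of 500 bp against the distance from the start of the rDNA window (kb), with 1 line per quintile and the annotated genes with their strands as bars below. The bin 8 to 8.5 kb from the start held 8.78% of window fragments in the lowest quintile and 8.95% in the highest, and the bin after it 3.97% and 4.93%. The lines of all quintiles lie close together although the pooled rDNA share goes from 0.185% to 1.57%.

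The ranking did not use the length of fragments, and inside the window it differed between the quintiles. Fragments shorter than the DNA of a nucleosome come mostly from DNA free of nucleosomes and those of the next length class mostly from DNA around 1 nucleosome, and the ratio of the longer to the shorter class is called the nucleosome signal. In the window it was 0.874, 0.788, 0.726, 0.693 and 0.616 from the lowest to the highest quintile, without an exception in the order. Over the rest of the genome it was 0.706 in the lowest quintile and 0.726 in the highest. The highest quintile was therefore below the lowest inside the window, by a factor of 0.704 (0.676 to 0.734), and slightly above it elsewhere, by a factor of 1.03. The median fragment in the window was 187 bp long in the lowest quintile and 149 bp in the highest, against 163 bp and 164 bp elsewhere.

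The shift to short fragments was present in each of the 3 stretches of the window. Over Gm26917 the nucleosome signal was 0.851 (0.813 to 0.890) in the lowest quintile and 0.597 (0.587 to 0.607) in the highest. In the 18S gene it was 1.12 (1.02 to 1.23) and 0.762 (0.738 to 0.787), and after the 18S gene 0.707 (0.625 to 0.799) and 0.535 (0.513 to 0.558). The 18S gene, whose RNA forms the core of the small ribosomal subunit, had the highest nucleosome signal of the 3 stretches in both quintiles.

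Among cells with at least 20 window fragments in these 2 length classes, the median share of short ones among them was 54.8% (quartiles 48.4% and 60.9%) in 202 cells of the lowest quintile. In the 621 cells of the highest quintile it was 61.4% (quartiles 58.4% and 65.2%), and the same share outside the window had medians of 58.5% and 58.0%. The quartile ranges of the window overlapped, so single cells of both quintiles could have the same share of short fragments. Of the 622 cells of the lowest quintile, only those 202 reached 20 such fragments.

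**Figure D2:**
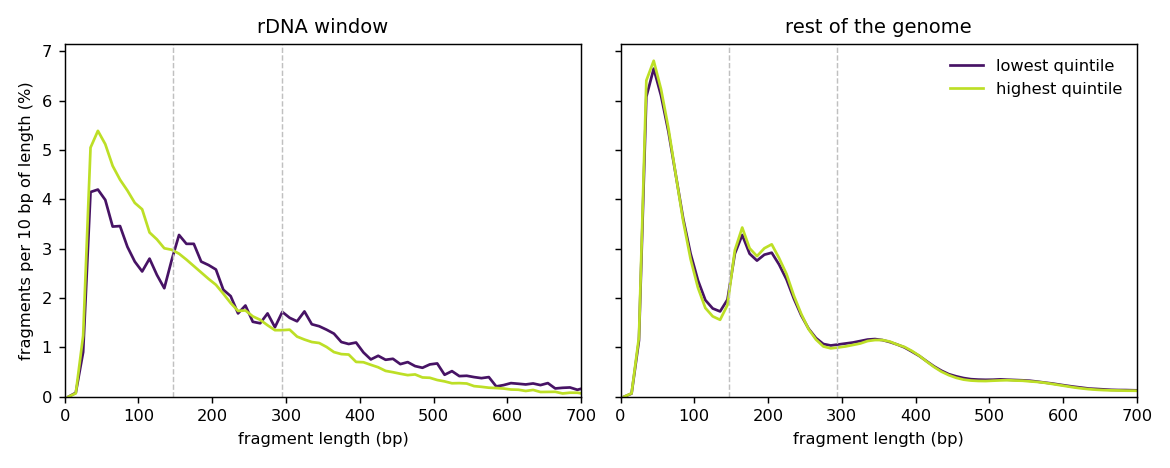
Percent of fragments per 10 bp of length against fragment length (bp) in the rDNA window and in the rest of the genome, for the lowest and the highest quintile. Dashed lines mark the limits of the nucleosome-sized class. In the window the highest quintile has more fragments below it (49.4% against 37.6%), and elsewhere the lines nearly coincide (45.3% in both).

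PCR duplication differed little between the groups within the window. Each unique window fragment stood for 4.82 read pairs in the lowest quintile and 5.02 in the highest, and fragments elsewhere for 4.49 in both. A diploid locus can give only 2 overlapping fragments in a cell before replication. The deepest overlap of a cell's fragments in the window had medians of 4, 6, 8, 9 and 13 over the quintiles and a highest value of 95, and it was over 2 in 95.8% of the ranked cells. More window fragments in a cell give deeper overlaps, so the order of these medians follows from the ranking. In the 8 strongest other windows of 10 kb whose own ratio between the extreme quintiles was 0.758 to 1.26, the medians were 1 or 2 in every quintile. Overlaps of over 2 occurred there as well, in 21.9% of the ranked cells at chr2:98660001, with a highest value of 38, and in 2.64% to 7.95% of them in the other 7 windows, with highest values of 4 to 7.

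The share of ATAC read pairs that could not be mapped went up with the rDNA share. Its medians were 1.57%, 1.89%, 2.18%, 2.56% and 3.27% from the lowest to the highest quintile. The upper quartile of the lowest quintile was 1.71% and the lower quartile of the highest was 2.94%, and every cell of the highest quintile was above the median of the lowest. Over 3108 cells the unmapped share and the rDNA share had a Spearman correlation of 0.90 and a Pearson correlation of 0.90. Pooled, 1.55% (1.54 to 1.55) of read pairs were unmapped in the lowest quintile and 3.29% (3.28 to 3.29) in the highest, a gap of 1.74 percentage points. The mapped window read pairs made up 0.180% and 1.52% of all read pairs. Both shares thus went up together from the lowest to the highest quintile. Read pairs of low mapping quality differed less, with medians of 6.37% and 6.67%. Both shares have the reads of the same library below them, and what the unmapped reads hold was not tested.

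**Figure D3:**
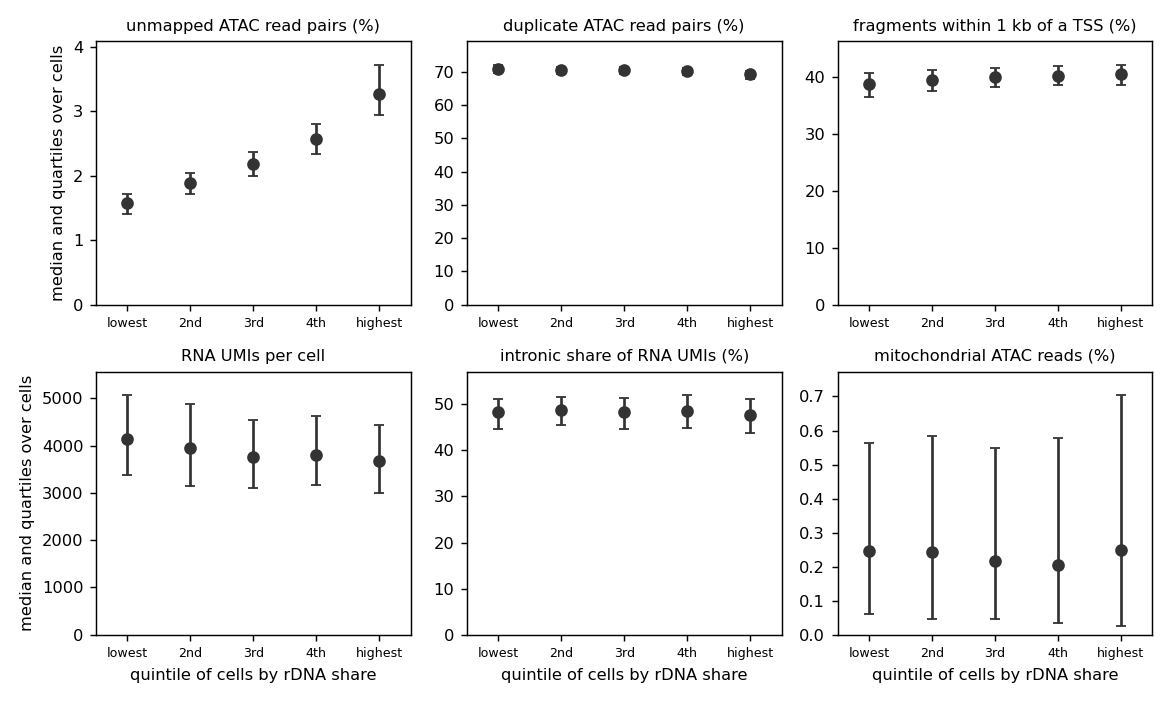
Medians (points) and quartiles (bars) over cells of 6 measures in the 5 quintiles of cells by rDNA share, each axis starting at 0. The unmapped share goes from 1.57% to 3.27% with quartiles that do not overlap between the extreme quintiles, whereas for RNA UMIs, the intronic share and mitochondrial reads they overlap.

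Away from the window, a small set of places in the genome had ratios of the size of that of the rDNA, and many of them resembled each other, and a few resembled rRNA genes, in sequence. Fragments of rDNA copies that were placed at such a site and fragments of the site itself cannot be told apart in these files. Of 23076 bins of 500 bp with at least 100 fragments in the extreme quintiles, 58 (0.251%) were over 4-fold higher in the highest quintile, and they formed 50 separate sites. The other 23018 bins had a median log2 ratio of 0.13 (quartiles -0.06 and 0.28), with 32 bins between 2-fold and 4-fold higher and 54 more than 2-fold lower. The median ratio of the sites was 8.33 (range 4.19 to 13.2), against 8.49 for the window. The threshold of 4-fold was chosen after the values were seen and uses the same contrast as the ranking, so the sites are described without a test. The minimum of 100 fragments is over both quintiles, and a site with few fragments in the lowest passed it through the highest.

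**Figure D4:**
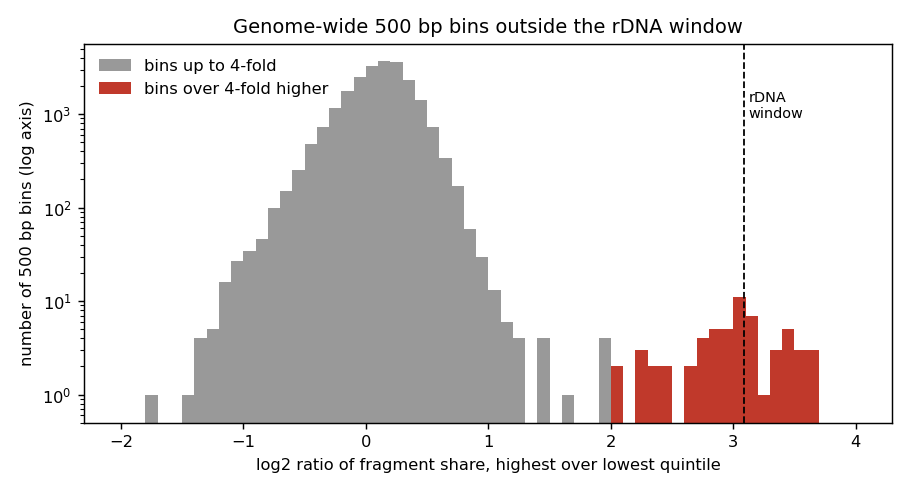
Number of 500 bp bins outside the rDNA window (log axis) against the log2 ratio of their fragment share, highest over lowest quintile. The bins over 4-fold higher, 58 of 23076, lie on both sides of the dashed line that marks the ratio of the rDNA window, 8.49 on the linear scale.

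The sites lay on 19 chromosomes, with 3 sites on X. No gene was annotated at 25 of them, 18 lay in protein-coding genes, of which 4 touched an exon, and 4 overlapped an annotated small RNA or rRNA gene. Together they gave 691, 1358, 2035, 2934 and 5197 CPM from the lowest to the highest quintile. The choice of sites fixed the direction between the extreme quintiles. The site with most fragments, chr13:9011501-9012500 in an intron of the lincRNA Gm36264, had 171 CPM in the lowest quintile and 871 CPM in the highest (5.09-fold, 4.80 to 5.41). The site at chr11:109011501-109012500, in no annotated gene, had 85.4 and 729 CPM (8.53-fold, 7.87 to 9.26). The median deepest overlap of a cell's fragments at chr13:9011501 went from 2 in the lowest quintile to 7 in the highest, and at chr11:109011501 from 1 to 5. The direction of these 2 changes follows from the choice of sites as well.

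Of the 50 sites, 33 (66%) shared sequence with another site at 85% identity or more over at least 50 aligned bases, against 512 of the 23018 other bins (2.22%) that shared sequence with a site. The transcribed sequence of the window was found within 500 bp of 2 sites and the piece of the 28S gene annotated by RefSeq near 2 others, and neither was found near any of the other 23018 bins. Fragments at the sites were short in both quintiles, with a nucleosome signal of 0.374 (0.351 to 0.399) in the lowest and 0.358 (0.349 to 0.367) in the highest, unlike those of the window.

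A stretch of 100 bases held in common by 3 sites on different chromosomes is shown because it lets their likeness be read directly. It was not compared with the whole 28S gene, which was not used here. The capitals mark the 96 bases identical in all 3, on the plus strand of mm10. The first, chr12:78350875-78350974, lies in an intron of Gphn, whose site had 451 fragments over both quintiles. The second, chr16:17222337-17222436, lies in no annotated gene and its site had 306, and the third, chr7:130834490-130834589, lies in an intron of Fgfr2 and its site had 261.
chr12, Gphn intron: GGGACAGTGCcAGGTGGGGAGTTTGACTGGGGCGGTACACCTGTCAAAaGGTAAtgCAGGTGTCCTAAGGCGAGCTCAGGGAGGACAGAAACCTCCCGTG
chr16, no annotated gene: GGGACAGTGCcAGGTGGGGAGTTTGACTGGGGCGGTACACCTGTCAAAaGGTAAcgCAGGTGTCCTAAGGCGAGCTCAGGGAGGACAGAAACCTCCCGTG
chr7, Fgfr2 intron: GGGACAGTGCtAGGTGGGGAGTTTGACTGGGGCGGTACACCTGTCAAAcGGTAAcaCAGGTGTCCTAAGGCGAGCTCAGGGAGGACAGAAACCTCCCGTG

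The site with the Gphn stretch was 8.34-fold higher in the highest quintile (6.31 to 11.2), the one on chromosome 16 11.8-fold (8.00 to 17.9) and the Fgfr2 one 8.80-fold (6.06 to 13.2). A second likeness was with the 18S gene itself. A piece of 908 bp on chromosome 6, chr6:3200770-3201677, was 98.0% identical to the 18S gene of the window and had 57 fragments in the lowest quintile and 427 in the highest (9.22-fold, 6.98 to 12.4). The 4 other pieces measured were shorter, with 338 to 412 aligned bases, and less like the window, with 91.6% to 96.7% identity. They held 0 to 3 fragments in either quintile, but do not cover every likeness to the window. The site at chr8:3754001-3754500, also near a match to the transcribed sequence of the window, is not among them. This site had 26 fragments in the lowest quintile and 253 in the highest. A stretch of 120 bases of the piece on chromosome 6 is printed beside the same stretch of the window. Both are on the plus strand of mm10, with the 2 bases that differ in capitals.
chr6:3201029-3201148: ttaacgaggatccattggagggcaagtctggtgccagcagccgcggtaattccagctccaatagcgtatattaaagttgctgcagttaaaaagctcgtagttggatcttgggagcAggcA
chr17:39846940-39847059: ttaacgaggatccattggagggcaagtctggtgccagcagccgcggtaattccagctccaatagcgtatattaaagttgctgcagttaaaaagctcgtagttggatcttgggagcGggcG

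Most other repeated or strong regions differed little. The 180 annotated 5S genes, which encode the remaining ribosomal RNA and are transcribed by RNA polymerase III from arrays of their own, held 6.36 CPM in the lowest quintile and 6.13 CPM in the highest. This ratio of 0.965 (0.621 to 1.49) rests on 51 and 40 fragments, and a difference inside that interval was not detectable at this depth. Of the 10 strongest windows of 10 kb besides the rDNA, 8 had ratios from 0.758 to 1.26, and the other 2 held a site and had ratios of 5.00 and 8.48.

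The remaining annotated rRNA genes, 173 in number, went from 60 to 214 fragments, and the 5.8S gene n-R5-8s1 on chromosome 18, one of the 50 sites, gave 23 and 178 of these (9.52-fold, 6.15 to 15.4). The first 5 Mb of the assembled sequence of chromosomes 12, 15, 16, 18 and 19, which usually carry the mouse rDNA arrays, held 954 fragments per 10000 in the lowest quintile and 988 in the highest. The same stretches of the other autosomes held 274 and 286.

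Cells with a high rDNA share had fewer RNA UMIs on average. The mean number of UMIs per cell was 4409, 4248, 4017, 4148 and 3806 from the lowest to the highest quintile, a ratio of 0.863 (0.862 to 0.865) between the extremes. Over cells the medians were 4137 (quartiles 3382 and 5058) and 3679 (quartiles 3003 and 4424), so that the quartile ranges overlapped and 34.1% of the cells of the highest quintile were above the median of the lowest. Over 3108 cells the Spearman correlation with the rDNA share was -0.13. The median number of genes detected was 2119 in the lowest quintile and 1973 in the highest. The RNA library is labelled as polyA RNA, and the part of its UMIs that came from the genes annotated inside the rDNA repeat was not analysed here. Fewer RNA molecules in a cell and less efficient capture cannot be told apart.

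The depth of the ATAC library, which is the denominator of the rDNA share, moved with the same groups. Median ATAC fragments per cell were 11974 in the lowest quintile and 10630 in the highest, and the duplicate share of read pairs had medians of 71.0% and 69.3%. When the extremes were taken within 10 bins of ATAC fragments per cell, the ratio of UMIs was 0.951 (0.949 to 0.953). Cells with the mark of a doublet, many sites covered by more than 2 fragments, numbered 42 of 622 (6.75%, 4.91 to 9.02) in the lowest quintile and 16 of 621 (2.58%, 1.48 to 4.15) in the highest, and without marked cells the ratio of UMIs was 0.887. The rate behind the mark, such sites per 10000 fragments, went the other way in the typical cell, with medians of 32.1 and 37.0.

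The intronic share of UMIs, which reflects unspliced RNA, differed little. Pooled it was 48.1%, 48.3%, 48.0%, 48.4% and 47.6% over the quintiles, a difference of -0.447 percentage points (-0.534 to -0.361) between the highest and the lowest. The medians over cells of the extremes were 48.3% (quartiles 44.7% and 51.2%) and 47.6% (quartiles 43.8% and 51.2%). Within bins of ATAC depth the difference was -1.09 percentage points. Intergenic RNA reads had medians of 16.9% and 17.6%, and antisense RNA reads 22.3% and 21.3%.

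Mitochondrial reads were higher in the pooled highest quintile, and this rested on a minority of cells. The pooled mitochondrial share of ATAC reads was 0.827%, 1.29%, 1.44%, 1.33% and 2.44% over the quintiles, a difference of 1.61 percentage points between the extremes, and of 0.440 with the extremes taken within 10 bins of duplicate share. Duplicate and mitochondrial reads are shares of the same reads of a cell, so bins of the one are not independent of the other. The median cell did not follow the pooled share, with 0.247% in the lowest quintile and 0.248% in the highest. Cells with over 5% mitochondrial reads numbered 25 (4.02%, 2.62 to 5.88) in the lowest quintile and 67 (10.8%, 8.46 to 13.5) in the highest. Without them the pooled share was 0.419% and 0.396%, which is lower in the highest quintile. The 197 such cells among all ranked cells had a median of 3302 UMIs against 3892 in the others, a median duplicate share of 57.7% against 70.4%, and a median rDNA share of 0.763% against 0.608%.

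Outside the window the fragments of cells with a high rDNA share lay more often at promoters. The authors' count of TSS fragments, with all window fragments taken off, was 48.5%, 50.2%, 51.7%, 51.6% and 52.4% of the fragments outside the window over the quintiles. With window fragments left in the count it was 48.7% in the lowest quintile and 54.0% in the highest. Fragments within 1 kb of the TSS of a protein-coding gene made up 36.8%, 38.3%, 39.6%, 39.5% and 40.3%. The third and the fourth quintile were thus nearly level in both. Between the extremes, fragments in the rest of gene bodies went from 35.8% to 34.5%, and those between genes from 27.4% to 25.3%. Over cells the medians of the share within 1 kb of a TSS were 38.8% (quartiles 36.6% and 40.7%) and 40.5% (quartiles 38.7% and 42.1%). The quartile ranges overlapped, and 72.1% of the cells of the highest quintile were above the median of the lowest.

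The share of fragments in the authors' peaks was 66.5% in the lowest quintile and 70.3% in the highest, or 66.4% and 69.8% without window fragments. The typical cell differed less, with medians over cells of 70.2% (quartiles 67.8% and 72.3%) and 70.5% (quartiles 68.6% and 72.3%), and 46.9% of the cells of the lowest quintile were above the median of the highest. When the extremes were taken within 10 bins of the share within 1 kb of a TSS, the difference in peaks was -0.122 percentage points, and within 10 bins of ATAC depth 1.73, against 3.84 over all ranked cells. Fragments in peaks and those within 1 kb of a TSS are in part the same. Bins of the TSS share thus even out part of the difference in peaks by construction. The GC content of the 500 bp tiles in which fragments started was 53.8% and 54.7%. These measures moved with the rDNA share together, and the part of each in the gene values that follow was not tested beyond the settings given.

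Genes were compared by the CPM over each protein-coding gene body plus 2 kb before it. Of 4140 genes with at least 1000 fragments over both quintiles, 1051 (25.4%) were past an absolute log2 ratio of 0.2, 874 (21.1%) higher and 177 (4.28%) lower in the highest quintile, and the median log2 ratio was 0.09. In windows of 1 kb on either side of the TSS, 771 of 1575 genes (49.0%) were past that ratio, 767 (48.7%) higher and 4 (0.254%) lower, with a median of 0.20. The balance of higher and lower genes differed between settings. Divided by the fragments in all TSS windows, 156 TSS windows were higher and 44 lower. With the extremes taken within 10 bins of promoter share, 253 gene bodies were higher and 204 lower. These bins even out fragments at promoters by construction, and the gene counts include such fragments. The 1380 shortest genes had a median log2 ratio of 0.16 and the 1380 longest one of 0.00, and over 4140 genes the ratio had a Spearman correlation of -0.45 with gene length.

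The genes with the highest ratios held sites of the kind described above, so their values are set by fragments at the site. Cdk8, a kinase of the Mediator complex, had 78.9 CPM in the lowest quintile and 431 CPM in the highest (log2 ratio 2.45, 2.32 to 2.58), and 0.13 without the site in its intron. Lars2, the mitochondrial leucyl-tRNA synthetase, went from 67.6 to 310 CPM (log2 ratio 2.20), and was at 0.11 without the site on its exon. Filip1l (1.89), Zc3h7a (1.53), Cmss1 (1.40), Camk1d (0.97) and Gphn (0.89), the last of which anchors inhibitory receptors at synapses, had log2 ratios between -0.36 and 0.14 without their sites. Filip1l and Cmss1 overlap and share 1 site. The TSS windows of these 7 genes had log2 ratios of 0.17 or below, with 0.12 for Cdk8 and 0.04 for Lars2.

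The other 3 of the 10 highest genes held no site. Polg2, the accessory subunit of the mitochondrial DNA polymerase, had 87.4 and 138 CPM (log2 ratio 0.66, 0.51 to 0.80). Rpl7, a protein of the large ribosomal subunit, had 64.2, 72.3, 87.2, 79.6 and 94.8 CPM over the quintiles (log2 ratio 0.56, 0.39 to 0.73). Ddx20, an RNA helicase of the SMN complex, had 82.1 and 118 CPM (log2 ratio 0.53, 0.38 to 0.68). The TSS windows of these 3 genes had log2 ratios of 0.62, 0.57 and 0.52. The 2 kb before Rpl7 reach over the TSS of Rdh10 on the other strand (log2 ratio 0.50), and the TSS windows of the 2 genes overlap. Fragments there count for both genes.

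Among the 10 lowest genes, Ptprd, Adamtsl1, Rbfox1 and Jakmip1 had log2 ratios of -0.74, -0.72, -0.64 and -0.58. Asic2, Dgki, Adarb2 and Nrxn3 lay between -0.51 and -0.47. Within bins of promoter share Ptprd was at 0.17 and Rbfox1 at 0.14, so their direction turned with that setting. Nrxn3, at -0.10 (-0.24 to 0.05) there, was within the ratio, and Adarb2 and Dgki were at -0.21 and -0.25. Nr4a1, an immediate early gene for a nuclear receptor linked with HSC quiescence, had 233, 228, 204, 215 and 160 CPM over the quintiles (log2 ratio -0.54, -0.66 to -0.43), and a TSS ratio of -0.59.

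**Figure D5:**
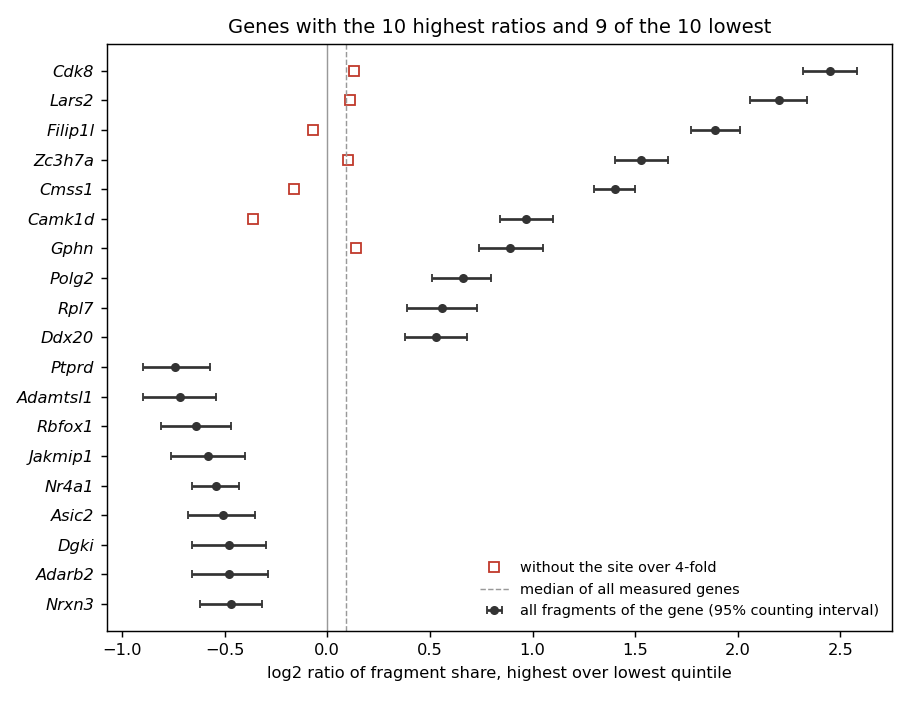
Log2 ratio of the fragment share of gene bodies plus 2 kb, highest over lowest quintile, for the 10 highest genes and 9 of the 10 lowest, with 95% counting intervals. Open squares give the ratio without the site over 4-fold that 7 of the genes hold, between -0.36 and 0.14, and the dashed line marks the median of all 4140 genes, 0.09.

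The genes of the RNA polymerase I machinery were mostly too weakly covered to be measured. Of 16 listed genes for its subunits and initiation factors, 3 passed the minimum of 1000 fragments and 2 of these were higher, against 21.1% of all genes, with a median of 0.25. Ubtf, whose product holds active rDNA open, had 128, 144, 144, 152 and 153 CPM over the quintiles (log2 ratio 0.25, 0.13 to 0.38), and Polr1d, a subunit shared with RNA polymerase III, had 86.1 and 104 CPM (log2 ratio 0.27, 0.12 to 0.43). Both were at 0.15 within bins of promoter share. Tbp, the shared TATA-binding protein, had 85.4 and 81.7 CPM. Below the minimum, Polr1a had 41.5 and 46.9, Polr1b 15.8 and 16.1, and the initiation factor gene Rrn3 35.3 and 32.1, all in CPM. All 16 genes pooled had a log2 ratio of 0.13 (0.07 to 0.19), near the median of 0.09 over all genes measured.

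Of 13 listed regulators of rDNA chromatin, 7 were measured and 1 was higher, against 21.1% of all genes, with a median of 0.17 against 0.09. That gene was Sirt1, a deacetylase, with 114 and 136 CPM (log2 ratio 0.26, 0.12 to 0.39), while its TSS window of 61 and 39 fragments had -0.35. Within bins of ATAC depth and of promoter share Sirt1 was at 0.18 and 0.16. Baz2a, whose product TIP5 silences rDNA copies, had 85.4 and 96.0 CPM (log2 ratio 0.17, 0.01 to 0.33). Ttf1, which terminates transcription by RNA polymerase I, had 18.7 CPM in both quintiles from 150 and 122 fragments.

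Of 32 genes for nucleolar processing of rRNA, 9 were measured and 3 were higher, against 21.1% of all genes, with a median of 0.16. Nop56, a core protein of box C/D snoRNPs, had 81.3, 87.8, 89.5, 91.1 and 105 CPM over the quintiles (log2 ratio 0.37, 0.22 to 0.53), but 0.19 within bins of ATAC depth and 0.18 within bins of promoter share. Ncl, which encodes nucleolin, had 167, 159, 164, 159 and 167 CPM (log2 ratio 0.00, -0.12 to 0.11). Npm1, for nucleophosmin, had 94.5 and 107 CPM (log2 ratio 0.17). Fbl, for the rRNA methyltransferase fibrillarin, had 42.0, 36.8, 36.9, 33.0 and 32.8 CPM (log2 ratio -0.36), and with 337 and 214 fragments it stayed below the minimum.

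Of 83 genes for ribosomal proteins of the cytosol, 24 were measured and 13 were higher, none lower, against 21.1% of all genes and 496 of the 1380 shortest ones, with a median of 0.23. At the TSS 7 of 12 were higher, near the 48.7% of all TSS windows, and at a minimum of 300 fragments 36 of 73 were higher, with a median of 0.19, against 2592 of all 7147, with a median of 0.15. Rpl36al had a log2 ratio of 0.37 (0.20 to 0.55), and Rps24 had 71.3 and 70.2 CPM. Ribosomal protein genes are short, and the 1380 shortest genes had a median of 0.16. Nuclear genes of the respiratory chain had 17 measured of 98 annotated, 7 of them higher against 21.1% of all genes and none lower, with a median of 0.19, led by Atp5f1 with 76.4 and 99.4 CPM. Of 14 genes for RNA polymerase III and the 5S factors, 5 were measured and 3 were higher against the same 21.1%, with a median of 0.21, among them Maf1, a repressor of RNA polymerase III, with 78.8 and 105 CPM (log2 ratio 0.41, 0.25 to 0.57). In TSS windows with at least 300 fragments, 4 of 12 of these genes were higher and 1 lower, with a median of 0.10, below the 0.15 of all such windows.

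Genes of growth, cycling and stem cell state were mostly within the ratio. Of 12 growth control genes, 8 were measured, 2 higher and 1 lower against 21.1% and 4.28% of all genes, with a median of 0.13. Mycn, with 87.6 and 113 CPM (log2 ratio 0.37), and Myc, with 100, 103, 110, 114 and 120 CPM over the quintiles (log2 ratio 0.26, 0.12 to 0.40), were higher, and Deptor, an inhibitor of mTOR, was lower with 88.3 and 74.7 CPM (log2 ratio -0.24, -0.41 to -0.07). Myc was at 0.19 within bins of ATAC depth and 0.18 within bins of promoter share, and Deptor at -0.13 within bins of duplicate share. Of 25 cell cycle genes, 8 were measured and 2 were higher, the cyclin gene Ccnd2 (log2 ratio 0.35) and the kinase gene Cdk4 (0.21), near the 21.1% of all genes, with a median of 0.15. Cdk4 was at 0.11 within bins of ATAC depth and 0.05 (-0.10 to 0.20) within bins of promoter share. Of 15 HSC identity genes, 10 were measured and 2 were higher, near the 21.1% of all genes, with a median of 0.09 as over all genes. These were Hlf, with 132 and 154 CPM (log2 ratio 0.22, 0.10 to 0.35), and Runx1, with 313 and 359 CPM (0.20, 0.12 to 0.28). Within bins of ATAC depth and of promoter share Hlf was at 0.14 and 0.12, and Runx1 at 0.16 in both.

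Of 10 quiescence genes, 7 were measured and 3 were higher, against 21.1% of all genes, with a median of 0.07. Txnip, whose product inhibits glucose uptake, was higher at 67.2 and 90.2 CPM (log2 ratio 0.42, 0.25 to 0.60). Egr1, an immediate early transcription factor, had 194 and 237 CPM (log2 ratio 0.29, 0.19 to 0.39), but 0.17 within bins of ATAC depth, 0.12 within bins of promoter share and 0.06 at its TSS. Cdkn1a, which encodes the cell cycle inhibitor p21, had 92.2 and 80.8 CPM (-0.19), within the ratio. Of 20 immediate early and stress genes, 13 were measured, with 5 higher and 1 lower, against 21.1% and 4.28% of all genes, and a median of 0.14. The higher ones included Hsp90aa1 and Fosb (log2 ratio 0.31 each), and the lower one was Nr4a1.

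The other lists were also read in TSS windows with at least 300 fragments, of which 2592 of 7147 were higher and 267 lower, with a median of 0.15. Of the RNA polymerase I genes 4 of 9 were higher and 1 lower (median 0.19), of the rDNA chromatin regulators 5 of 7 were higher (0.23), and of the nucleolar processing genes 12 of 29 were higher and 3 lower (0.13). Of the growth control genes 5 of 9 were higher (0.25), of the cell cycle genes 4 of 18 higher and 1 lower (0.14), and of the HSC identity genes 4 of 7 higher (0.21). Of the quiescence genes 6 of 9 were higher (0.23), of the immediate early and stress genes 4 of 14 higher and 2 lower (0.09), and of the respiratory chain genes 26 of 58 higher (0.18). The medians of the lists thus lay on both sides of that of all windows.

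The genes that the study linked to platelet-restricted and multi-lineage HSC clones were read on gene bodies and at the TSS. Of the platelet list, 19 were measured, 3 were higher, against 21.1% of all genes, and none lower, with a median of 0.04 against 0.09. Of the multi-lineage list, 13 were measured and 1 was higher, Srsf2, a splicing factor (log2 ratio 0.35, and 0.19 within bins of promoter share), with a median of 0.04. In TSS windows with at least 300 fragments both lists had a median of 0.15, as had all 7147 such windows. Of the replication-dependent histone genes, 2 were measured and neither passed the ratio, against 25.4% of all genes. In TSS windows with at least 300 fragments 10 of 30 histone genes were higher and 2 lower, with a median of 0.06 against 0.15. Among the lineage markers 1 gene each of the B cell, megakaryocyte and endothelial lists was measured, Pax5 (-0.07), Itga2b (-0.06) and Pecam1 (-0.17). Pooled over the whole list, the erythroid markers had a log2 ratio of 0.26 (0.10 to 0.42) and the T cell markers one of -0.18 (-0.34 to -0.01), from 670 and 651 and from 707 and 509 fragments. The endothelial and stromal markers were at -0.15 (-0.27 to -0.03). Those of B cells were at -0.11 (-0.22 to 0.01), of neutrophils and monocytes at -0.07 (-0.26 to 0.12) and of megakaryocytes at -0.07 (-0.18 to 0.04).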

How the data were processed

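One preparation of HSCs gave 1 ATAC, 1 RNA and 1 ADT library. The authors mapped reads with Cell Ranger ARC 2.0.2 (reference mm10 2020-A) and deposited counts that are not normalized: reads, UMIs, genes and fragments per barcode, and the position of each unique fragment with its read pairs. That tool by default shifts both ends of a fragment to the centre of the transposase site, and no source states whether the authors kept this. The ADT counts were not used.

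Python 3.11.15 was used with numpy 2.4.6, pandas 2.3.3, scipy 1.17.1 and BLAST+ 2.17.0, and matplotlib 3.10.9 drew the figures. Sequences were read from GRCm38, and genes were taken from GENCODE vM21 and RefSeq. The values of 1 gene that the naming rule picked are not reported here. The members, gene lists and measures were chosen with earlier results of these data known. Called cells with more than 3000 fragments in peaks were ranked by the share of fragments starting in the window and split into 5 groups. Short fragments were under 147 bp and nucleosome-sized ones 147 to 294 bp. Doublets were kept and marked at 3 median absolute deviations. Fragments of the quintiles were summed, with no test, since cells of 1 preparation are not replicates. Sequence likeness used an e-value of 1e-10. The steps were tested on simulated data.

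Named genes were the 2 highest and the 2 lowest of each of 20 lists and the 10 highest and the 10 lowest of all genes, among those with at least 1000 fragments, plus Ubtf, Rrn3, Polr1a, Polr1b, Ttf1, Baz2a, Ncl, Npm1, Fbl and Myc. Of these, the genes that carry the comparison are described. Alternatives were other ways to rank (within bins of depth, after thinning to 4000 fragments, deciles, without the strongest bin, on read pairs, all called cells, further filters, without doublets, on alternate fragments), other gene windows and minimums. Those within bins of promoter or duplicate share, on even starts and on the stretch before the 18S gene were added after the data were seen.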

Additional observations from a re-analysis of the deposited data

How the results depend on the processing

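The values of the highest against the lowest quintile kept their direction under all alternatives but 2, and 80 of 130 moved, mostly past a narrow counting interval. The ratio of RNA UMIs, 0.863, was 0.951 within depth bins, 0.875 after thinning, 0.834 for deciles, 0.867 without the strongest bin, 0.861 on read pairs, 0.883 in all called cells, 0.887 without doublets, 0.866 on alternate fragments, 0.935 within promoter bins, 0.848 within duplicate bins, 0.870 on even starts, 0.908 for genes detected and 0.889 for medians. The intronic difference, -0.447 percentage points, was -1.09 within depth bins, -0.667 after thinning, -1.30 for deciles, -0.553 on read pairs, -0.288 in all called cells, -0.729 without doublets, -0.801 within promoter bins, -0.672 within duplicate bins and -0.676 in reads. The mitochondrial difference, 1.61, was 1.66 within depth bins, 1.34 after thinning, 1.80 for deciles, 1.55 without the strongest bin, 1.50 on read pairs, 1.52 in all called cells, 1.47 without doublets, 1.59 on alternate fragments, 1.30 within promoter bins, 0.440 within duplicate bins, 1.53 on even starts, 1.59 on the stretch before the 18S gene, 0.00189 for medians and -0.0231, a reversal, without cells over 5%, whose removal is by construction the cause. The TSS difference, 5.24, was 3.74 within depth bins, 4.87 after thinning, 6.39 for deciles, 5.29 without the strongest bin, 5.06 on read pairs, 5.48 in all called cells, 4.86 without doublets, 1.83 within promoter bins, 5.44 within duplicate bins, 5.10 on even starts and 3.83 with window fragments taken off. The peak difference, 3.84, was 1.73 within depth bins, 3.44 after thinning, 4.24 for deciles, 3.91 without the strongest bin, 3.48 on read pairs, 4.14 in all called cells, 2.91 without doublets, 5.06 within duplicate bins, 3.68 on even starts, 3.43 with window fragments taken off and -0.122, a reversal, within promoter bins. Promoter bins even out fragments that the TSS and peak counts also hold, so both differences change there in part by construction. The rest of the change was not tested. Duplicate and mitochondrial shares are likewise taken over the same reads. The ratio of nucleosome signals outside the window, 1.03, lay between 1.00 (duplicate bins) and 1.08 (promoter bins), with 1.04 within depth bins, for deciles and without doublets, 1.03 on read pairs and in all called cells, and 1.02 on the stretch before the 18S gene. Inside the window the ratio, 0.704, was 0.621 for deciles. The unmapped difference, 1.74, was 1.58 within depth bins, 1.71 after thinning, 2.21 for deciles, 1.73 in all called cells, 1.76 without doublets, 1.65 within promoter bins, 1.62 within duplicate bins, 1.72 on even starts and 1.73 on the stretch before the 18S gene. Genes past the ratio, 1051 of 4140 (83.2% higher), numbered 629 of 4289 within depth bins, 295 of 862 for deciles, 457 of 4054 within promoter bins (55.4% higher), 3416 of 11721 at a minimum of 300 fragments (64.4% higher), 52 of 225 at 3000, and 200 of 1575 for TSS windows divided by their own total. Divided by fragments on protein-coding genes, 67.2% of 795 calls were higher, and in TSS windows 99.5%. Of the named genes, Ptprd was at 0.01 within depth bins and 0.17 within promoter bins, and Rbfox1 at 0.14 within promoter bins. The planned split of alternating fragments divides a sorted file evenly at each place by construction, so its shares (0.185% and 0.186% in the lowest quintile) say nothing of repeatability. No paired analysis was possible because there is 1 preparation and no test. Without replicates, no value can be set against the spread between animals, and genes below 1000 fragments were not called in the main setting and rest on few fragments.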
